A study of Arabidopsis thaliana with 46 samples.

Results

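The nitrogen (N) response of isolated Arabidopsis root cells was taken from 8 RNA-seq libraries of sorted root protoplasts, 4 at 60N and 4 at 0N, out of 46 libraries in the series. These are all the libraries that the labels name Protoplast_60N and Protoplast_0N, and the comparison ran over every gene. Protoplasts are plant cells freed of their walls. They came from the roots of Col-0 seedlings aged 10 days, grown on vertical plates with 1 mM KNO3 and 1% sucrose. Both groups were transfected with an expression vector, which by the methods was the empty vector (EV) that carries the glucocorticoid receptor part alone. The 60N cells then received 20 mM KNO3 plus 20 mM NH4NO3 and the 0N cells 20 mM KCl. Nitrate and ammonium were thus added together, chloride and the total salt concentration differed as well, and their effects cannot be told apart here. Neither group received cycloheximide (CHX), which blocks protein synthesis, nor dexamethasone (DEX). About 10000 to 20000 transfected cells were sorted by fluorescence for each library, so the values are means over the cell types that took up the vector.

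Whole-root and CHX-treated libraries served for comparison. Whole roots of Col-0, aged 10 days by the labels (Root_60N and Root_0N, n = 4 each), received the same salts without CHX or DEX. Their plants grew in liquid medium, however, and their roots were neither digested nor sorted. The supplementary methods give those plants a higher age at treatment than the labels, and place the root harvest at the time of protoplast sorting. EV protoplasts of a separate experiment (EV_60N and EV_0N, n = 3 each), from Col-0 roots also aged 10 days, received the same salts with 35 µM CHX and 10 µM DEX. Tissue, growth medium and handling cannot be told apart in the first comparison, and CHX, DEX and experiment cannot be told apart in the second.

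Plants take up nitrate through transporters of the NRT and NPF families and reduce it to nitrite in the cytosol and to ammonium in the plastid. Glutamine synthetase and glutamate synthase then build the ammonium into amino acids. Nitrate is itself a signal: it is sensed by the transporter NRT1.1 and by NIN-like proteins (NLPs), which switch on the assimilation genes, and nitrate also raises repressors of the HRS1 and LBD families that later restrain uptake. In intact plants, reduced N and signals from the shoot lower the high-affinity transporters as well.

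The 8 protoplast libraries held 9677719 to 15358000 counts, and the 60N library of replicate 1 was the smallest. Values are given as CPM, counts scaled to a common library size by the trimmed mean of M-values (TMM), and a response is a log2 fold change of 60N over 0N with its standard error (SE). Of 33016 gene IDs, 21007 had enough counts to be tested. The first principal component of the 8 libraries (26.8% of variance) placed all 4 0N libraries on the side opposite to all 4 60N libraries. Replicate 1 of 60N stood apart from the other 60N libraries on the second component, at -38.7 against 13.1 to 21. Markers fixed for root cell types were not all present. Those of the endodermis summed to 344 to 458 CPM per library and those of the stele to 105 to 129. The members were uneven, with 0N means from 1.18 to 228 CPM in the endodermis list and from 1.36 to 49.2 CPM in the stele list. Hair genes COBL9, EXPA7, EXPA18 and PRP3 were each under 0.5 CPM on average, as was the cortex gene CO2, although all of them exceeded 5 CPM in whole roots. The highest of the 6 hair markers, however, averaged 19.7 CPM at 0N, and the hair list summed to 18.6 to 34.1 CPM per protoplast library. The other cortex marker, PEP, averaged 5.13 CPM at 0N. Green tissue markers summed to at most 1.18 CPM. Among the dividing-cell markers, CYCB1;1 stood near 36 CPM and each other member under 4 CPM. The summed marker ranges of 0N and 60N overlapped for every cell type, and the stele gene PHO1 was the only marker called. In bulk RNA, fewer cells of a type and less RNA per cell cannot be told apart.

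In protoplasts, 506 of 21007 genes (2.41%) changed between 60N and 0N, by edgeR's quasi-likelihood test with an adjusted p (Benjamini-Hochberg) under 0.05. Transcripts of 322 genes (1.53% of those tested) rose and 184 (0.876%) fell. By size, 93 genes rose by at least 2-fold and 27 fell by as much, with a median absolute log2 change of 0.70 over all 506. The split of rises to falls depended on scaling, at 322 to 184 with TMM, 277 to 250 with the relative log expression (RLE) factors in edgeR, and 432 to 576 with DESeq2. It depended on single libraries as well. Without replicate 2, 3 or 4 of 0N the count of calls was 320, 310 or 274, and without replicate 3 of 60N it was 321. The supplementary methods call the 4 protoplast samples of each treatment independent. Neither they nor the labels say that each came from separate plants or a separate transfection. The p-values thus measure the spread between these libraries, which may be technical.

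The 5 genes of smallest p were the nitrite reductase gene NIR1, the repressor gene HRS1, the scaffold genes BT2 and BT1, and the root ferredoxin reductase gene RFNR2. All of them rose at least 6-fold and belong to the nitrate pathway described next. The plot of the nitrate genes by library shows how far their 0N and 60N values lay apart.

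**Figure D1:**
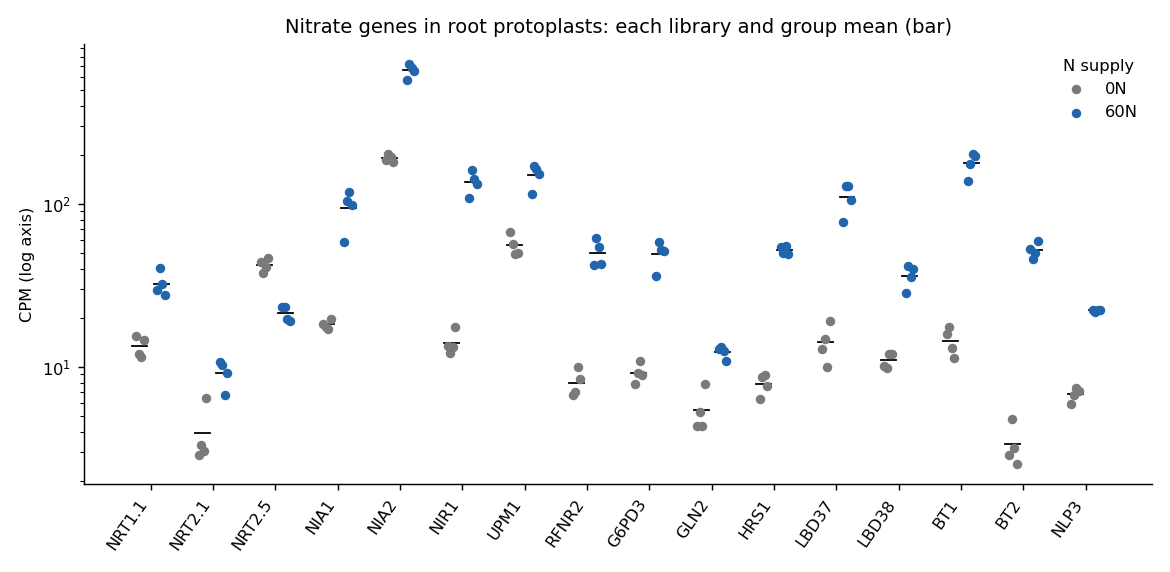
CPM on a log axis of 16 nitrate genes in each protoplast library at 0N (grey) and 60N (blue), with a bar at each group mean. Of the genes shown, NRT2.5 alone lies lower at 60N, and in the other 15 all 4 60N libraries lie above all 4 0N libraries. The 16 genes were picked from the lists and leave out NPF2.7 and NLP9, which fell. Over all 21007 tested genes, all 60N libraries lay above all 0N libraries in 4.4% and below them in 5.14%.

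The nitrate reductase genes NIA1 and NIA2, the nitrite reductase gene NIR1 and UPM1, a gene for the siroheme cofactor of nitrite reductase, rose. NIR1, the plastid nitrite reductase, was at 13.4, 12.2, 13.2 and 17.6 CPM in the 0N libraries and at 109, 161, 141 and 133 CPM in the 60N libraries. Its log2 change was 3.27 ± 0.14 (SE, n = 4 per group, edgeR adjusted p = 1.37e-11), and it also rose in whole roots, by 0.86. NIA2, the major nitrate reductase, went from 186, 202, 194 and 180 CPM to 577, 723, 687 and 652 CPM. This was the largest gain in CPM of the pathway, a log2 change of 1.79 ± 0.10 (edgeR adjusted p = 2.25e-10). In whole roots NIA2 instead fell by 1.21 on the log2 scale, from a mean of 519 to 224 CPM. NIA1, the second nitrate reductase, read 18.5, 17.6, 17 and 19.8 CPM at 0N and 58.4, 104, 118 and 98.9 CPM at 60N, a log2 change of 2.38 ± 0.16 (edgeR adjusted p = 4.94e-09). The lowest of the 60N values, in replicate 1, was still about 3 times the highest at 0N.

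UPM1 makes the precursor of siroheme, the cofactor of nitrite reductase. It had 67.4, 56.9, 49.2 and 50.3 CPM at 0N and 114, 171, 165 and 152 CPM at 60N, a log2 change of 1.43 ± 0.12 (edgeR adjusted p = 2.53e-07). The other 4 members of the list, the siroheme gene SIRB and the molybdenum cofactor genes CNX1, CNX2 and CNX3, were not called, with log2 changes from -0.13 to 0.25. Over the 8 genes, 4 rose and none fell, and the median log2 change was 0.84 against 0 for all 21007 genes.

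Nitrite reduction needs reduced ferredoxin, which non-green plastids draw from the oxidative pentose phosphate pathway. Of the 17 tested genes of this supply, 11 rose and none fell (median log2 change 0.77). RFNR2, which passes electrons from NADPH to ferredoxin in roots, was at 6.68, 7.05, 9.94 and 8.4 CPM at 0N and at 42.4, 61.8, 54.1 and 42.8 CPM at 60N (log2 change 2.65 ± 0.15, edgeR adjusted p = 2.25e-10). G6PD3, a plastid glucose-6-phosphate dehydrogenase that opens the pathway, read 7.85, 9.2, 10.9 and 8.94 CPM and then 36.2, 58.4, 52.4 and 51.2 CPM (log2 change 2.43 ± 0.14, edgeR adjusted p = 4.21e-10). The gene AT5G41670, annotated as a 6-phosphogluconate dehydrogenase family protein, rose from a mean of 11.5 to 53.2 CPM, and its relative AT1G64190 from 10.2 to 22.1 CPM.

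Other members also rose. G6PD2, a second glucose-6-phosphate dehydrogenase gene, gained 1.2 on the log2 scale, the transketolase gene TKL1 1.00, the glucose-6-phosphate isomerase gene PGI1 0.87 and the transaldolase gene TRA2 0.77. The second root ferredoxin reductase gene RFNR1 gained 0.74 and the ferredoxin gene FD3 0.67. TKL2 rose by 0.77 in protoplasts and fell by 0.96 in whole roots. The abundant family member AT3G02360, a 6-phosphogluconate dehydrogenase family protein at 250 CPM in 0N cells, had a log2 change of -0.04 ± 0.08 and was not called.

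Ammonium assimilation responded in few members. GLN2, the plastid glutamine synthetase, was at 4.35, 5.29, 4.34 and 7.86 CPM at 0N and at 12.9, 13.3, 12.5 and 10.9 CPM at 60N (log2 change 1.17 ± 0.15, edgeR adjusted p = 6.56e-05). GLT1, the NADH-dependent glutamate synthase, read 430, 458, 389 and 460 CPM at 0N against 631, 681, 683 and 630 CPM at 60N (log2 change 0.60 ± 0.09, edgeR adjusted p = 0.000514). The aspartate aminotransferase gene ASP3 rose by 0.43. The other 15 of the 18 tested genes were not called, among them the cytosolic glutamine synthetase gene GLN1;3 (log2 change 0.17 ± 0.09). Neither asparagine synthetase gene ASN1 nor glutamate dehydrogenase gene GDH2 passed the test in protoplasts (log2 changes 0.19 ± 0.32 and 0.44 ± 0.13), while in whole roots they rose by 6.86 and 2.97 on the log2 scale. Carbon skeletons for the pathway come as 2-oxoglutarate. In that list, 3 of 9 genes rose: the plastid 2-oxoglutarate carrier gene DIT1 (0.70), the phosphoenolpyruvate carboxylase kinase gene PPCK2 (0.61) and the cytosolic isocitrate dehydrogenase gene cICDH (0.36). The calls of PPCK2 and cICDH were each lost without any 1 of 6 protoplast libraries (all but replicate 1 of 0N and replicate 3 of 60N for PPCK2, all but replicate 1 of 0N and replicate 4 of 60N for cICDH). HISN1A, which opens histidine synthesis, rose from 22.7, 24.7, 19.4 and 21.5 CPM to 39.4, 55.2, 52.7 and 60.6 CPM.

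Transport genes moved in both directions. NRT1.1 (NPF6.3), the dual-affinity transporter and nitrate sensor, stood at 15.4, 12, 11.4 and 14.6 CPM in 0N cells and at 29.6, 40.5, 32.1 and 27.5 CPM in 60N cells (log2 change 1.28 ± 0.16, edgeR adjusted p = 3.41e-05). NRT2.1, the main high-affinity transporter of roots, had only 2.86, 3.33, 3.07 and 6.41 CPM at 0N and 10.8, 10.3, 6.7 and 9.12 CPM at 60N. The lowest 60N library thus exceeded the highest 0N library by little, and the call (log2 change 1.2 ± 0.28, edgeR adjusted p = 0.0236) was lost without replicate 1, 2 or 3 of 0N or replicate 1, 2 or 4 of 60N (edgeR adjusted p 0.0563 to 0.0906). Its partner gene NRT3.1 did not pass the test (log2 change 0.42 ± 0.12, edgeR adjusted p = 0.0657).

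NRT2.5, a high-affinity transporter known from N-starved plants, was instead lower at 60N. Its values were 44.1, 37.6, 41.2 and 46.3 CPM at 0N and 23.4, 23.3, 19.6 and 19.1 CPM at 60N, with no overlap (log2 change -0.99 ± 0.13, edgeR adjusted p = 6.36e-05). NPF2.7, the nitrate efflux carrier NAXT1, fell from 104, 149, 124 and 132 CPM to 72.8, 69, 75.6 and 63.5 CPM (log2 change -0.86 ± 0.11, edgeR adjusted p = 4.27e-05). CLCA, the vacuolar nitrate exchanger, rose by 0.84. In all, 3 of 22 tested transport genes rose and 2 fell. None of the 5 tested ammonium transporter genes was called in protoplasts. AMT1;1, the most abundant, was at 864, 774, 791 and 743 CPM at 0N and 872, 594, 664 and 699 CPM at 60N. All 5 fell in whole roots.

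Among regulators, the response lay with the nitrate-induced repressors and scaffolds, of which 10 of 15 rose and none fell (median log2 change 1.03). BT1 and BT2 encode BTB and TAZ domain scaffold proteins. BT2 went from 2.86, 4.8, 3.17 and 2.53 CPM to 53, 46.1, 50.3 and 59 CPM (log2 change 3.96 ± 0.19, edgeR adjusted p = 3.6e-11). BT1 went from 15.9, 17.6, 13.1 and 11.4 CPM to 137, 175, 202 and 198 CPM (log2 change 3.62 ± 0.20, edgeR adjusted p = 2.25e-10). These were the largest rises of the list, and both genes rose further in whole roots, by 7.31 and 6.70. BT5 passed narrowly (log2 change 0.44, edgeR adjusted p = 0.0437), its groups overlapped, and leaving out any of 11 single libraries, each protoplast library but replicate 1 of 0N among them, or scaling by RLE ended the call, whereas BT3 and BT4 were not called.

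The HRS1 family encodes myb-like transcription factors (TFs) that repress nitrate and phosphate starvation genes. HRS1 itself read 6.37, 8.71, 8.88 and 7.59 CPM at 0N and 54.3, 49.9, 55.1 and 49.4 CPM at 60N (log2 change 2.72 ± 0.13, edgeR adjusted p = 3.6e-11). Its response in whole roots was of the same size, 2.75. The myb-like gene AT3G25790 was near the detection floor of 3 counts (0.27 to 0.40 CPM per library) at 0N, at 0.955, 0, 0.212 and 0.723 CPM, and reached 3.63, 5.88, 7.43 and 3.28 CPM at 60N. The more abundant HHO2 and HHO3 rose by 1.03 and 0.75, HHO3 from a mean of 681 to 1148 CPM. LBD37, a LOB domain repressor, went from 12.9, 14.9, 9.94 and 19.1 CPM to 77.2, 128, 129 and 106 CPM (log2 change 2.95 ± 0.18, edgeR adjusted p = 1.12e-09). Its relatives LBD38 and LBD39 rose by 1.73 and 2.71.

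The promoters of these repressors were read because the HRS1 family is known to bind the letters GAATATTC and GAATC. The window searched was the 250 bases before the annotated gene start, on both strands, in the RefSeq genome TAIR10.1. GAATATTC stood in 185 of 21006 promoters (0.881%), in 3 of 184 falling genes (1.63%) and in 2 of 322 rising genes (0.621%), so it was no more frequent among rising genes than among all. The rising genes with it were HRS1 and AT3G25790. Both are shown, 5′ to 3′ on the gene's strand, with the motif in capitals. The HRS1 window is chr1:4556628-4556687 and the AT3G25790 window chr3:9412888-9412947 (TAIR10.1), both on the plus strand. The motif ends 228 bases before the annotated start of HRS1 and 130 bases before that of AT3G25790.
HRS1: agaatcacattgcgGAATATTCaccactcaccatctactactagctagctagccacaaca
AT3G25790: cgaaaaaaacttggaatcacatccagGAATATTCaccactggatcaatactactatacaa
In both windows the motif is followed by the same letters accact, and gaatcacat stands upstream of it. A match is a description of these letters and not a site of binding. The shorter GAATC was found in 41.3% of rising, 42.4% of falling and 39% of all tested promoters.

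The nitrate-responsive element was searched by its core, CTT and AAG 10 bases apart, which NLPs are known to bind. It stood in 7.14% of rising, 7.61% of falling and 7.73% of all tested promoters, and in none of the 15 genes of largest rise. Among the rising genes of nitrate reduction only UPM1 held it, at chr5:16365671-16365730 on the plus strand, 191 bases before the gene start, with the core in capitals.
UPM1: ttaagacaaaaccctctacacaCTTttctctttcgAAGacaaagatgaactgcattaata
The letters of TGA factor sites (TGACGT) were in 6.83% of rising, 9.78% of falling and 8.01% of all promoters, and those of the G-box (CACGTG) in 9.94%, 8.15% and 7.1%. ACTCAT, an element of proline dehydrogenase promoters, was in 11.8%, 14.7% and 11.9%. AAACCCTA, the telo box of ribosome genes, was in 2.17%, 2.72% and 3.58%. These shares differ little between the sets, no test was run on them, and sites outside the window were not searched.

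Of 26 tested genes for sensors and activators of the nitrate response, 5 rose and 1 fell (median log2 change 0.10). NLP3, a NIN-like TF, was at 5.94, 6.76, 7.4 and 7.14 CPM at 0N and at 22.3, 21.8, 22.4 and 22.4 CPM at 60N (log2 change 1.71 ± 0.15, edgeR adjusted p = 3.97e-07). NLP9 went the other way, from 16.1, 28, 22 and 25.2 CPM to 7.26, 12.7, 12 and 14.6 CPM (log2 change -0.96 ± 0.20, edgeR adjusted p = 0.00891). NLP7, a central regulator that acts through nuclear retention of its protein, did not pass the test (log2 change 0.16 ± 0.11). CDF1 (0.96), TGA1 (0.58), NLP1 (0.56) and the auxin receptor gene AFB3 (0.44) rose. The call of AFB3 was lost without any 1 of 7 protoplast libraries, all but replicate 4 of 60N. TGA4 and NAC4 were not called, with log2 changes of 0.01 ± 0.34 and 0.69 ± 0.23.

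The largest rise among genes of at least 5 CPM was that of AT5G10210, whose product RefSeq names a nitric oxide synthase-interacting protein. It had 0.743, 0.196, 1.16 and 0.181 CPM at 0N and 16.7, 44.8, 34.9 and 35.5 CPM at 60N (log2 change 5.90 ± 0.38, edgeR adjusted p = 1.94e-09). AT5G62720, an integral membrane HPP family protein, followed, from 0.318, 0.294, 0.846 and 0.361 CPM to 5.78, 9.4, 8.79 and 9.73 CPM (log2 change 4.22 ± 0.29, edgeR adjusted p = 4.5e-09). For AT5G10210, replicates 2 and 4 of 0N lay under the detection floor of 3 counts (0.294 and 0.271 CPM). AT5G62720 was near that floor at 0N, so the size of both folds is uncertain. DIN11, a dark-inducible dioxygenase gene, rose by 2.83 and AT1G49500 by 3.46. Of the 15 largest rises, 11 were members of the nitrate, reductant, repressor or starvation lists or of the heat shock list. All lists together held 407 of the 21007 tested genes. They were chosen with earlier results of these data known, so this count is a description.

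Genes for heat shock proteins formed another group that rose. These are chaperones that hold or refold unfolded proteins, and the TF HSFA2 drives many of them. Of the 12 genes in the list, 10 rose and none fell (median log2 change 1.47). Their summed level was 816, 840, 759 and 799 CPM in the 0N libraries and 994, 1099, 1597 and 1658 CPM in the 60N libraries. Every 60N library exceeded every 0N library, and replicates 3 and 4 of 60N stood well above replicates 1 and 2. The same genes summed to 45.8 to 83.8 CPM in the whole-root libraries.

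HSFA2 was at 15.7, 12.9, 13.2 and 14.5 CPM at 0N and at 44.9, 51.3, 86.8 and 94.7 CPM at 60N (log2 change 2.3 ± 0.20, edgeR adjusted p = 3e-07). HSP101, a disaggregase needed for survival of heat, read 71.6, 88, 69 and 76.1 CPM and then 158, 156, 279 and 288 CPM (log2 change 1.53 ± 0.16, edgeR adjusted p = 4.92e-06). The small heat shock protein gene HSP22 rose by 2.26, HSP21 by 1.85, the mitochondrial HSP23.6-MITO by 1.78, HSP17.4 by 1.5 and HSP17.6II by 1.43. HSP90.1 rose by 1.1, HSP17.6A by 1.00 and the HSP70 gene AT3G12580 by 0.76. HSP18.2 and DREB2A were not called (log2 changes -0.36 ± 0.23 and -0.06 ± 0.13). DESeq2 called 6 of the 12 genes in place of 10, leaving out HSP17.6A, HSP17.6II, HSP17.4 and HSP23.6-MITO. With edgeR, the calls of HSP17.6A and HSP21 were lost without any 1 of 6 protoplast libraries (all but replicates 1 and 2 of 60N), that of HSP17.6A also without replicate 3 of Root_60N, and that of HSP17.6II without replicate 3 of 0N or replicate 3 or 4 of 60N. How reads shared by the closely related small heat shock genes were counted is not given in the sources used here, so their single values are uncertain.

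In whole roots 1 of the 12 genes rose (DREB2A) and 4 fell, HSFA2 by 1.72 on the log2 scale, where 17.4% of all tested genes rose and 25.7% fell, so those counts were near the background. The difference between the tissues passed the test in the direction of a higher response in protoplasts for 8 genes, against 14.2% of all tested genes. For 3 of the 8 single libraries ended the call. Without replicate 4 of Root_0N the difference of HSP21 went from 5.23 to 1.85 (edgeR adjusted p = 1) and that of HSP23.6-MITO from 2.9 to 1.67 (edgeR adjusted p = 0.3). The call of HSP21 was lost without any 1 of 12 libraries in all, that of HSP17.6II without any 1 of 11 and that of HSP23.6-MITO without any 1 of 6. With CHX and DEX, 7 of the 12 rose, HSFA2 by 1.25 ± 0.26 and HSP101 by 1.2 ± 0.21, and for none of the 12 did the response without CHX differ from that with CHX by the test. That difference was 1.04 ± 0.41 for HSFA2 and 0.32 ± 0.36 for HSP101 (log2, SE).

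**Figure D2:**
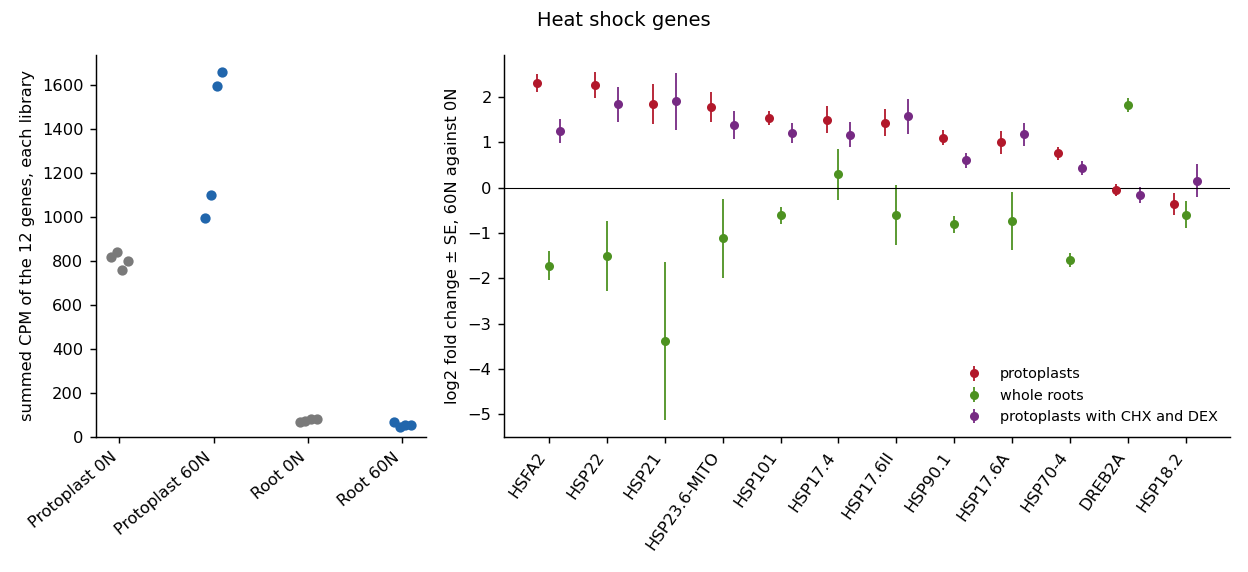
Left, summed CPM of the 12 heat shock genes in each library. Right, log2 fold change ± SE of each gene in protoplasts (red), whole roots (green) and protoplasts with CHX and DEX (purple). The 60N protoplast libraries lie at 994 to 1658 CPM above the 0N libraries at 759 to 840 CPM, and whole roots lie at 45.8 to 83.8 CPM. The root point of HSP21 rests on 1 library, since the other 7 root libraries are at 0.

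The repeated pair GAA and TTC is the core of the element that heat shock factors bind, and GAANNTTC was added to the search after the values were seen. It stood in 3 of the 10 rising heat shock promoters and in 5 of the 10 rising repressor and scaffold promoters (HRS1, AT3G25790, LBD37, BT2 and BT5), against 10.6% of rising, 10.9% of falling and 9.5% of all tested promoters. For the heat shock genes, a window with a match in capitals is shown for each of the 3. The windows are chr2:11135564-11135623 on the plus strand for HSFA2, chr3:16984868-16984927 on the minus strand for HSP17.4 and chr4:13820038-13820097 on the minus strand for HSP21.
HSFA2: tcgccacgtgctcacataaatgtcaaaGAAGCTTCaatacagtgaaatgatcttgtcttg
HSP17.4: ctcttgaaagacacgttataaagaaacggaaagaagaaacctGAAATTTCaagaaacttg
HSP21: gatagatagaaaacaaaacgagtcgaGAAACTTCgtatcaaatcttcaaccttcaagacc
GAATATTC is a special case of this pattern, and it is the match in HRS1 and AT3G25790.

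Falling genes numbered 184 with TMM, a count whose order against the rises turned with DESeq2, and no list held more than 2 genes that fell. EDS16, which makes isochorismate for salicylic acid, was at 217, 164, 184 and 162 CPM at 0N and at 89.9, 91.9, 76.5 and 76.8 CPM at 60N (log2 change -1.12 ± 0.13, edgeR adjusted p = 1.26e-05). BGLU31, a beta glucosidase gene, went from 224, 173, 223 and 212 CPM to 87.2, 105, 107 and 118 CPM (log2 change -1.0 ± 0.11, edgeR adjusted p = 5.34e-06). OPR1, a 12-oxophytodienoate reductase, had 101, 107, 104 and 96.5 CPM at 0N and 34.8, 56.4, 65.8 and 45.4 CPM at 60N (log2 change -1.01 ± 0.18, edgeR adjusted p = 0.00236). In all 3 genes no 60N library reached the lowest 0N library, as was the case for 5.14% of all tested genes, while in 4.4% all 60N libraries lay above.

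The largest fall among genes of at least 5 CPM was that of BGLU35, with 15, 14.8, 10.7 and 12.8 CPM at 0N and 5.65, 8.13, 2.2 and 3.07 CPM at 60N (log2 change -1.48 ± 0.29, edgeR adjusted p = 0.00659). BGLU34 fell by 1.36, the cellulose synthase-like gene CSLB01 by 1.21 (lost without replicate 3 of 0N or of 60N) and DOT1 by 1.15 on the log2 scale. The 15 largest falls ranged from -1.48 to -0.96 and also held DPE1, NRT2.5, NLP9, BGLU31 and 5 genes named here only by their ID (AT4G02170, AT4G04410, AT4G18540, AT1G50590 and AT5G47440). Single protoplast libraries ended the calls of AT4G02170 (any 1 of 6), AT5G47440 (any 1 of 4) and AT4G04410 (replicate 2 of 0N). Cytokinin synthesis is a known output of nitrate in roots. In protoplasts IPT5, an isopentenyltransferase gene, fell from 47.4, 37.9, 39.1 and 42.4 CPM to 21.4, 26.5, 23.2 and 26.4 CPM (log2 change -0.77 ± 0.12, edgeR adjusted p = 0.000881), and ARR8 rose by 0.49, a call lost without any 1 of 6 protoplast libraries (all but replicate 3 of 0N and replicate 4 of 60N). The other 18 of 20 tested cytokinin genes were not called, against 12 that rose in whole roots.

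With 2.41% of all genes called, lists of this size would hold few calls or none at the background share. None of the tested genes was called among 17 autophagy, 15 sulfate, 12 jasmonate, 13 early stress TF, 11 abscisic acid, 13 ribosome biogenesis, 12 clock, 9 S1 and C group bZIP, 8 iron and 8 glutaredoxin genes. In whole roots 12 of the autophagy genes, 7 of the abscisic acid genes and 8 of the clock genes rose, and 10 of the sulfate genes fell, against 17.4% and 25.7% of all tested genes. The phosphate list had 1 rise (PHO1, 0.77) and 1 fall (MGD3, -0.55), and the hypoxia list 1 rise (the haemoglobin gene HB1, 1.2) and 1 fall (HRE2, -0.71). PHO1 lost its call without replicate 2 of 0N. MGD3 and HRE2 each lost theirs without any 1 of 7 protoplast libraries (all but replicate 4 of 60N), MGD3 also without any 1 of 6 root libraries and HRE2 without any 1 of 2. Auxin response had 1 fall (IAA19, -0.40) and amino acid transport 2 rises (SIAR1, 0.82, and AAP1, 0.49). Single protoplast libraries ended these calls too, any 1 of 3 for IAA19, of 5 for SIAR1 and of 4 for AAP1, replicate 2 of 0N among them for all 3 genes. No call was made among 12 housekeeping genes.

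**Figure D3:**
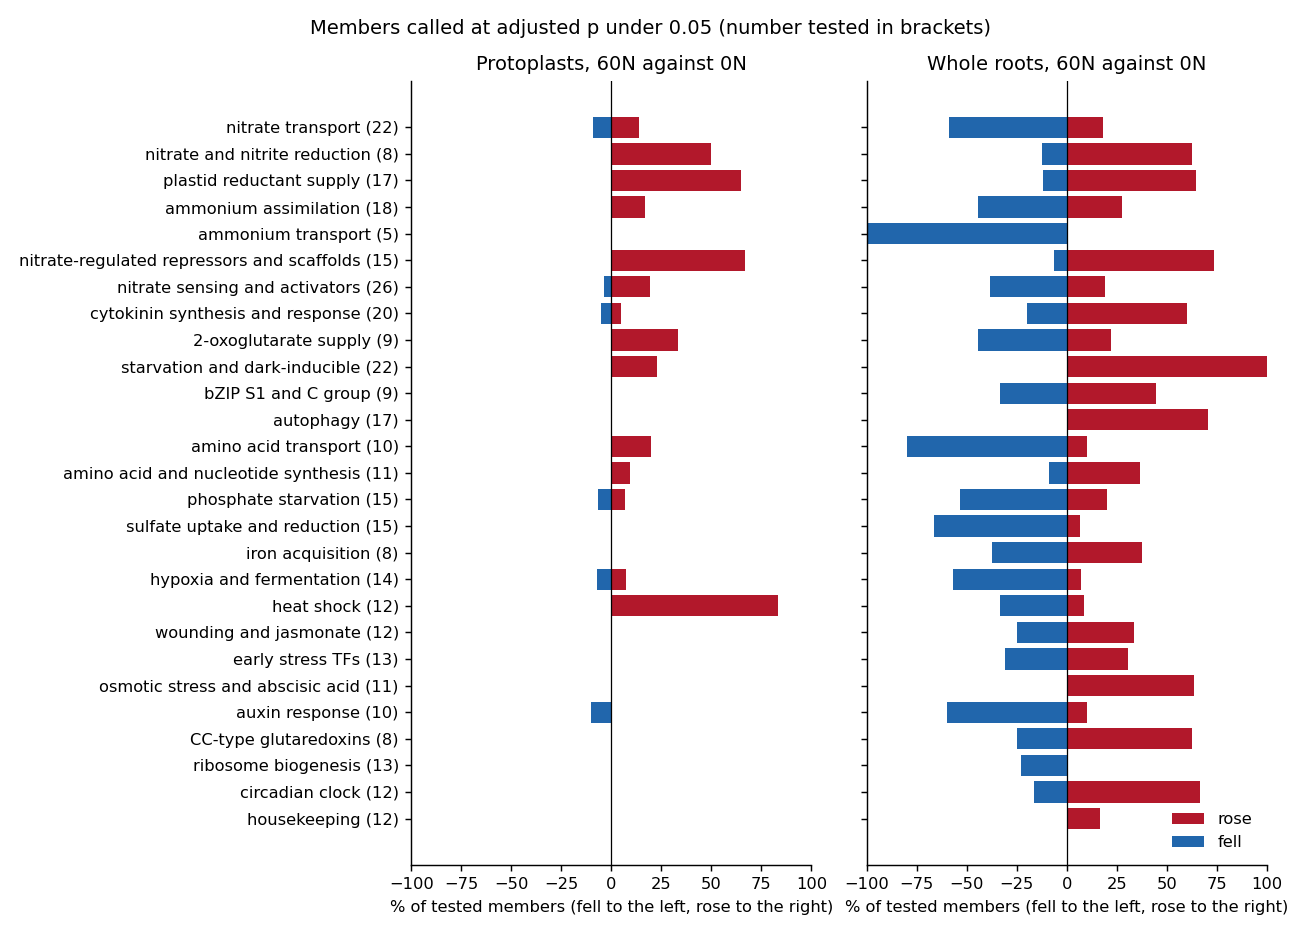
Share of tested members that rose (red, right) or fell (blue, left) at adjusted p under 0.05 in protoplasts and in whole roots, with the number tested in brackets. In protoplasts the longest bars are heat shock (10 of 12), repressors and scaffolds (10 of 15) and plastid reductant supply (11 of 17), and in roots starvation genes (22 of 22 rose) and ammonium transport (5 of 5 fell).

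The same N supply changed far more genes in whole roots, 9065 of 21007 (43.2%), so overlap with the roots was read against that share. Of the 322 genes that rose in protoplasts, 132 (41%) also rose in roots, 91 fell there and 99 were not called, against 17.4% of all tested genes that rose and 25.7% that fell in roots. Of the 184 that fell, 91 (49.5%) fell in roots too and 15 rose. The 223 genes that moved the same way in both were 44.1% of the protoplast calls and 2.46% of the root calls. Over the 506 protoplast calls the 2 sets of log2 changes had a Pearson r of 0.36, a value across genes, which are not independent.

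The difference between the responses was itself tested as a tissue by N interaction, which called 5122 genes (24.4%), 2983 higher (14.2%) and 2139 lower (10.2%) in protoplasts. With RLE factors the same counts were 2558 and 2419, and without a filter on low counts 2066 and 2659. Without any 1 of the 8 protoplast libraries, 40.7% to 43.6% of the called differences were higher in protoplasts, against 58.2% with all of them. Among the 322 rising genes, the response was higher in protoplasts for 180 and lower for 59, and among the 184 falling genes it was higher for 23 and lower for 48. The genes were chosen by their protoplast response, which is part of the difference, so these counts are a description and favour that direction.

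The high-affinity transporter genes NRT2.1 and NRT2.5 were among the 6 largest positive differences. In whole roots NRT2.1 fell from a mean of 562 to 34.4 CPM, while in protoplasts it went from 3.92 to 9.22 CPM, and the difference of the responses was 5.23 ± 0.34 (log2, SE, edgeR adjusted p = 6.44e-10). At 0N the protoplasts thus held far less NRT2.1 transcript than the roots, on the shared TMM scale, whose factors were 0.686 to 0.772 in protoplasts and 1.3 to 1.39 in roots. NRT2.5 showed the reverse level, at 42.3 CPM in 0N protoplasts and 3.53 CPM in 0N roots, and it stayed below the detection floor of 3 counts in all 4 60N roots, so no root fold is given. AT4G32950, a protein phosphatase 2C family gene, rose in protoplasts from 11.2, 10.7, 9.62 and 15.9 CPM to 25.4, 22.5, 20.2 and 23.6 CPM, and fell in roots by 4.50 on the log2 scale. NLP3 likewise rose by 1.71 in protoplasts and fell by 2.67 in roots, and NRT1.1 rose by 1.28 and fell by 1.35. HSP21 and the GRAS family gene AT1G63100 completed the 6 largest positive differences, and both have a group at or near the floor. HSP21 was at 0 in 7 of the 8 root libraries, so its root fold is not given. AT1G63100 had 0 counts in every 0N protoplast library and 0.098 to 0.404 CPM at 60N, at or near the floor, so no fold is given.

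The starvation and dark-inducible list differed the other way. All 22 tested members rose in whole roots (median log2 change 3.87), 5 rose in protoplasts (median 0.41), and the response was lower in protoplasts for 21 of them. The number that rose in protoplasts was 10 when the protoplast libraries were fitted alone, 3 without replicate 2 or 3 of 0N, and 9 without replicate 2 of Root_60N. AT3G15450, an aluminium-induced protein gene, had 208, 176, 174 and 182 CPM at 0N and 278, 276, 296 and 294 CPM at 60N, a log2 change of 0.63 in protoplasts against 6.32 in roots. TPS9, a class II trehalose phosphate synthase, went from 147, 140, 131 and 129 CPM to 278, 299, 292 and 296 CPM, a log2 change of 1.09 against 4.28. GAT1_2.1, a glutamine amidotransferase gene, rose by 0.93 against 6.02, the polyol transporter gene PMT6 by 0.88 against 5.19 and the kinase gene STY46 by 0.85 against 4.67. AT1G80380 (0.63 against 5.10) and the transporter gene AT5G14120 (0.73 against 4.94) completed the 6 largest negative differences. The protoplast calls of AT1G80380 and AT5G14120 were each lost without any 1 of 6 protoplast libraries (all but replicate 1 of either group, edgeR adjusted p 0.0555 to 0.133), that of AT3G15450 without replicate 2 or 3 of 0N and that of PMT6 without replicate 2 or 4 of 0N.

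**Figure D4:**
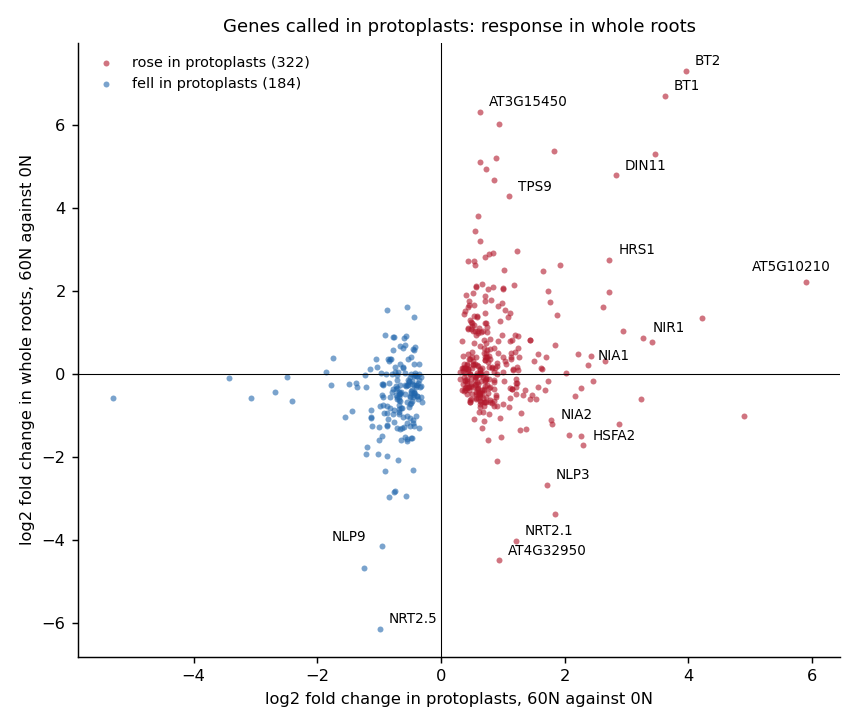
Log2 fold change in whole roots (vertical) against that in protoplasts (horizontal) for the 506 genes called in protoplasts, red where they rose and blue where they fell there. NRT2.1, NLP3 and AT4G32950 lie below 0 in roots and above 0 in protoplasts, and AT3G15450 rose by 0.63 in protoplasts and 6.32 in roots.

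EV protoplasts treated with CHX and DEX gave 659 N calls of 18342 (3.59%), 421 higher (2.3%) and 238 lower (1.3%). Of the 318 rising genes tested in both experiments, 64 (20.1%) also rose with CHX and DEX, which was 9.74% of the calls there, and 3 fell. Of the 175 falling genes, 7 fell and 13 rose. Over the 318 rising genes the log2 changes had a Pearson r of 0.84 across genes, and over the 175 falling genes 0.28. NIR1 rose by 3.27 without and 3.23 ± 0.50 (SE) with CHX and DEX, and NIA1 by 2.38 and 2.79 ± 0.48. BT1 rose by 3.62 and 4.06 ± 0.63, BT2 by 3.96 and 4.4 ± 0.73 and HRS1 by 2.72 and 2.02 ± 0.38. The EV_60N libraries were uneven, with NIR1 at a mean of 95.9 CPM and a standard deviation of 73.7. The test of the difference called none of these genes, which does not show that their responses are equal.

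The difference of the responses without and with CHX and DEX was called for 417 of 19011 genes (2.19%), 96 higher (0.505%) and 321 lower (1.69%). This count moved with single libraries more than the others did. It was 125 without replicate 2 of EV_0N, 1302 without replicate 2 of EV_60N and 159 without replicate 3 of EV_60N. It was 204 and 212 without replicates 3 and 4 of Protoplast_0N, and 210 and 221 without replicates 2 and 3 of Protoplast_60N. Of 321 rising genes tested, 26 had a higher response without CHX and none a lower one, and of 180 falling genes 29 had a lower response and none a higher one. These genes were chosen by their response in the same libraries without CHX, so the direction follows from the choice and is a description.

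Among rising genes whose response was higher without CHX, MS2, a methionine synthase, had 24.5, 19.9, 25.5 and 19.2 CPM at 0N and 35.2, 42.9, 48.8 and 40.3 CPM at 60N, a log2 change of 0.91, against -0.70 with CHX and DEX. MYB4, a repressor of phenylpropanoid genes, rose by 0.64 and had a change of -1.30 with CHX and DEX. SHM4 (0.95 against -0.21), MTHFR2 (0.57 against -0.56), the dirigent gene DIR6 (0.79 against -0.38) and the phenylalanine ammonia-lyase gene PAL4 (0.56 against -0.57) were the others of the 6 largest. The protoplast rise of MYB4 was lost without any 1 of 6 protoplast libraries and that of PAL4 without any 1 of 6 protoplast libraries or replicate 1 of Root_0N. The difference itself was lost for DIR6 without any 1 of 8 libraries, for MTHFR2 without replicate 2 of EV_0N or replicate 3 of EV_60N and for SHM4 without replicate 2 of EV_0N.

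Of falling genes, the largest difference was in AT4G18540, an uncharacterized protein gene, at 46.6, 52, 72.9 and 74.3 CPM at 0N and 19.8, 25.9, 30.6 and 43.4 CPM at 60N. It fell by 1.03 on the log2 scale without CHX and rose by 1.79 with CHX and DEX. sks8, a multicopper oxidase-like gene, fell by 0.95 and rose by 1.39. NDA1, an alternative NAD(P)H dehydrogenase, fell by 0.78 and rose by 1.49. CYP84A4 (-0.61 against 1.39), AT3G07195 (-0.50 against 1.47) and the chitinase family gene AT2G43590 (-0.68 against 1.18) completed the 6. Each of these 6 rose with CHX and DEX by the test of that experiment. The groups of CYP84A4 without CHX overlapped, and its fall was lost without any 1 of 6 protoplast or 4 root libraries. The fall of AT3G07195 was lost without any 1 of 6 protoplast or 5 root libraries, and that of NDA1 without replicate 4 of 0N or replicate 3 of 60N.

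**Figure D5:**
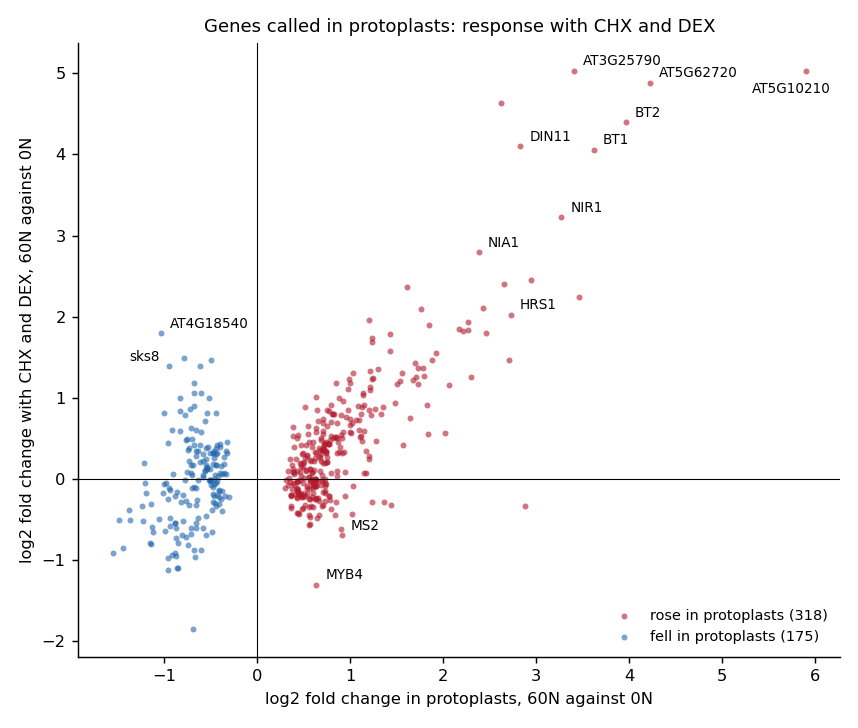
Log2 fold change with CHX and DEX (vertical) against that without (horizontal) for the genes called in protoplasts and tested in both, red where they rose (318) and blue where they fell (175) without CHX. Strong rises such as BT2 (3.96 and 4.4) and NIR1 (3.27 and 3.23) lie near the diagonal, with SEs of 0.73 and 0.50 on the CHX values. AT4G18540 and sks8 lie above 0 with CHX and below 0 without.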

How the data were processed

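The counts per gene were deposited by the authors as whole numbers without normalization. By the methods and the submitters' processing notes, reads were aligned with TopHat2 to TAIR10 and counted against gene models, and DESeq2 was among the study's tools. The study's DESeq2 model for its TF samples had a batch term. The labels give no batch for the libraries used here, so none was fitted. Strand, and the treatment of overlapping genes and near-identical copies, are not given in the sources used here, so such genes are uncertain. Counts were fitted with edgeR 4.0.16 (R 4.3.3, limma 3.58.1): filterByExpr, TMM scaling, 1 mean per group over 16 protoplast and whole-root libraries, quasi-likelihood F-test, Benjamini-Hochberg adjusted p under 0.05. The tissue by N difference came from the same fit. The difference from EV cells with CHX came from a fit of 14 libraries, and their own response from the 18 libraries of the N dose experiment. Each SE was derived from the F statistic and the log2 change. Detection floors of 3 counts cover counting error only. Same-numbered libraries did not deviate together, so replicate numbers were not used as pairs. Of the gene IDs, 99.33% matched RefSeq, which gave names and, from its TAIR10.1 genome, the sequences.

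Text genes followed a rule: the 15 largest rises and 15 largest falls among called genes of at least 5 CPM whose groups did not overlap, members of the lists by role, the 6 largest differences each way in each difference test, and the 5 smallest p. The members and lists were chosen with earlier results of these data known. Alternatives were DESeq2 1.42.0, RLE scaling, no filter, protoplasts alone, a fold minimum, a replicate block and leaving out each library. The tests were also run on simulated counts with seeded changes, at 1 fixed dispersion and with independent libraries. That setting does not cover the dependence on single libraries, and its outcome is not given here.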

Additional observations from a re-analysis of the deposited data

Results flagged for a closer look

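In 6 of 203 groups of 4 protoplast libraries (2.96%, 102 genes), 1 library stood far from the other 3, where chance gives about 1 in 20. NRT2.1 was at 6.41 CPM in replicate 4 of 0N against 2.86 to 3.33 in the others. AT1G64190 was at 29.2 CPM in replicate 2 of 60N against 19 to 20.1. MTHFR2 was at 17.1 CPM in replicate 1 of 60N against 18.6 to 18.7, and DPE1 in the same library at 2.29 CPM against 3.89 to 4.19. DIR6 was at 20.3 CPM in replicate 1 of 0N against 12.8 to 14.1, and AT5G62720 at 0.846 CPM in replicate 3 of 0N against 0.294 to 0.361.

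The N response differed between protoplasts and whole roots by the interaction test in these genes, given as the log2 response in protoplasts minus that in roots. It was higher in protoplasts for AT1G63100 (5.91), AT4G32950 (5.44), NRT2.1 (5.23), HSP21 (5.23), NRT2.5 (5.16) and NLP3 (4.38). AT1G63100, HSP21 and NRT2.5 each have a group at or under the detection floor, so the size of their difference depends on the fit, and without replicate 4 of Root_0N that of HSP21 was 1.85. It was lower in protoplasts for AT3G15450 (-5.69), GAT1_2.1 (-5.09), AT1G80380 (-4.47), PMT6 (-4.31), AT5G14120 (-4.21) and STY46 (-3.82).

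The response without CHX minus that with CHX and DEX differed by the same kind of test. It was higher without CHX for MYB4 (1.93), MS2 (1.60), DIR6 (1.16), SHM4 (1.15), MTHFR2 (1.12) and PAL4 (1.12). It was lower for AT4G18540 (-2.83), sks8 (-2.35), NDA1 (-2.28), CYP84A4 (-2.01), AT3G07195 (-1.98) and AT2G43590 (-1.86).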

How the results depend on the processing

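None of the 102 named protoplast calls changed direction under any alternative run. Neither did any called difference among the 74 tissue differences and 12 differences without and with CHX that were followed. Genes named as not called, and those named only in the gene families below, were not followed. The balance of rises and falls did change. The 506 protoplast calls became 120 with an absolute log2 change of at least 1, 1008 with DESeq2 (499 shared) and 274 to 623 with 1 library left out. The 5122 tissue differences became 2291 with that fold minimum and 4472 to 5194 with 1 library left out. The 417 differences without and with CHX became 201 with the fold minimum, 877 with DESeq2 and 125 to 1302 with 1 library left out. The cause of these shifts was not tested, except that the fold minimum can only remove calls. Rises made up 63.6% of protoplast calls with TMM, 52.6% with RLE, 42.9% with DESeq2, 55.1% with no filter and 55.5% with protoplasts alone. Of the tissue differences 58.2% were higher in protoplasts with TMM, 51.4% with RLE or DESeq2 and 43.7% with no filter. Of 102 named protoplast calls, 10 were lost with the replicate block, 5 with DESeq2, and 3 each with RLE, with no filter and, of 101, with protoplasts alone, and 176 of 1632 values were past the threshold no longer when 1 library was left out. Low counts limit the folds of genes near the floor.

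Replicate numbers did not pair the libraries: same-numbered deviations had correlations of -0.0646, -0.0883, -0.0825 and 0.00688. Adding the replicate block gave 404 protoplast calls (387 shared), 4745 tissue differences and 572 differences without and with CHX.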

Other observations

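Gene families read from RefSeq product names, chosen after their values were seen and therefore given as counts with no test, also moved in protoplasts. Over all tested genes, 1.53% rose and 0.876% fell in protoplasts, and 17.4% rose and 25.7% fell in whole roots. With CHX and DEX the shares were 2.3% and 1.3%. Of 20 tested enzymes of the lignin pathway, 8 rose and none fell (median log2 change 0.48), while 1 rose and 10 fell in whole roots. The rising genes were the phenylalanine ammonia-lyase genes PAL1 (0.70), PAL2 (0.73) and PAL4 (0.56), which open the pathway, with C4H (0.56), 4CL1 (0.66), 4CL2 (0.79), HCT (0.60) and CYP98A3 (0.69). With CHX and DEX none of these 20 rose and 1 fell. Of 15 methyl cycle enzymes, which make the methyl donor S-adenosylmethionine, 6 rose and 1 fell, against 1 and 9 in whole roots and 0 and 1 with CHX and DEX. The counts with CHX and DEX were near the background share in both families. SHM4 (0.95), MS2 (0.91), MTHFR1 (0.72), MAT3 (0.70), MTHFR2 (0.57) and SAM1 (0.47) rose, and MTO3 (-0.54) fell.

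Chaperones outside the heat shock list were called as well. Of 32 chaperones of other classes, 8 rose, among them Hsp70b (1.36), Fes1A (1.33), BAG6 (1.15) and CPN60A (0.91), and the mitochondrial mtHsc70-1 (-0.44) fell. In whole roots 4 of them rose and 15 fell, against 17.4% and 25.7% of all tested genes. Of 27 further HSP20-like genes, 5 rose and none fell. Among beta glucosidases 3 of 24 fell, among tau glutathione transferases 2 of 26 (GSTU9 and GSTU25) and among GDSL lipases 4 of 57, and none of these 3 families had a rise.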
